A study of Mus musculus with 10 samples.

Results

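The comparison described here sets mouse fibroblasts induced to reprogram, in the cohort labelled as having divided 3 or more times on average, against the same kind of cells left uninduced and starved of serum. Its members are 4 of the 10 arrays of the series, 2 of each group, chosen by the labels. Messenger RNA levels were read on Affymetrix arrays from total RNA of secondary, inducible embryonic fibroblasts of a 129/SvJ x C57/B6 hybrid strain, and 18193 genes were read on all of them. The control cells (labelled Serum-starved control) had no doxycycline and were held for 96 h in medium with 0.5% serum. The induced cells had doxycycline, labelled as 2 ug/ul, for 96 h in medium with 15% serum. Induction, serum and division therefore differ together between the groups and cannot be told apart here. The remaining arrays are induced cohorts labelled with an average of 0, 1 or 2 divisions, and only the last of these is tested against the cohort of 3 or more divisions, near the end, where levels in the others are given as a description. How cells were sorted into cohorts, which transgenes they carry and which promoter drives them are not stated in the labels, and the number of embryos behind the cells is not given either. The 2 samples of each group are called biological replicates, but separate cultures are not stated, so the p-values measure only the spread between these samples, which may be technical.

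Secondary inducible fibroblasts are made from embryos that carry reprogramming transgenes already integrated, so that doxycycline switches on the factors, usually Pou5f1, Sox2, Klf4 and Myc, throughout the culture. Fibroblasts without serum leave the cell cycle and enter a reversible arrest in which growth factor signalling is low and FoxO transcription factors are active. Serum growth factors and Myc drive the making of nucleotides, ribosomes and proteins, and early reprogramming is known for the loss of fibroblast genes and the gain of epithelial ones.

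Values are log2 of the probe set intensity after quantile normalization, and a difference is the cohort minus the control on that scale, ± the standard error from the fit. A gene was called where limma's moderated test, with Benjamini-Hochberg adjustment over all genes, gave an adjusted p under 0.05. The fit had the group as its only term and did not pair the replicates. The deposited array medians ran from 31.4 to 33.95, and the 2 arrays of a group correlated across genes with r of 0.959 in the control and 0.981 in the cohort. For Actb, the control probe sets near the 3′ end of the transcript read above those near the 5′ end by 0.26 and 0.26 on the control arrays and by 0.49 and 0.50 on the cohort arrays, and for Gapdh by 0.06 and 0.03 against 0.27 and 0.26. This measure of RNA quality moves with the groups in every comparison with the control below, and its part in them was not tested. In the cohort of 2 divisions it was 0.46 and 0.50 for Actb and 0.11 and 0.26 for Gapdh. In bulk RNA, fewer cells of a type and less RNA per cell cannot be told apart. Of 15 fibroblast markers, 0 lay below the median of all genes in both groups.

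Of the 4 factors usually induced, Pou5f1 and Myc were higher in the induced cells, Klf4 was lower and Sox2 did not pass the test. Pou5f1 read 3.92 and 3.61 on the control arrays and 7.64 and 8.23 on the cohort arrays, a rise of 4.17 ± 0.35 with an adjusted p of 0.000295 in limma's test. Myc read 7.30 and 8.59 on the control arrays and 10.71 and 11.29 on the cohort arrays and rose by 3.06 ± 0.47. Both were above the control on both cohort arrays. Klf4 read 10.35 and 10.62 on the control arrays and 8.65 and 8.45 on the cohort arrays and fell by 1.93 ± 0.19. Sox2 read 4.10 and 3.55 on the control arrays and 3.84 and 4.01 on the cohort arrays, with a difference of 0.10 ± 0.20 that did not pass (adjusted p = 0.78 in limma's test), and its arrays overlapped. The files do not say whether these probe sets read a transgene as well as the cell's own transcript.

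Genes changed in both directions, and the largest changes were in genes read near the dim end of the scale in 1 group. Of the 18193 genes, 5020 were called (27.6% of those tested), 2895 of them higher (15.9%) and 2125 lower (11.7%) in the induced cells. Most were modest, with a median size of 0.95 on the log2 scale and 2681 calls under 2-fold. At least 4-fold calls numbered 280 higher and 284 lower, at least 8-fold calls 97 and 83, and at least 16-fold calls 34 and 21. Of the 34 genes that rose at least 16-fold, 30 had a control mean below the median of all genes, and of the 21 that fell as far, 15 had a cohort mean below it. Without replicate 2 of the cohort, 2701 genes were called, 2663 of them among the 5020. The median difference of all genes was 0.02. The arrays of the groups did not overlap for 63.1% of all genes, so separation alone marks little here. They did not overlap for any of the 5020 called genes, so separation adds nothing to a call in what follows.

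**Figure D1:**
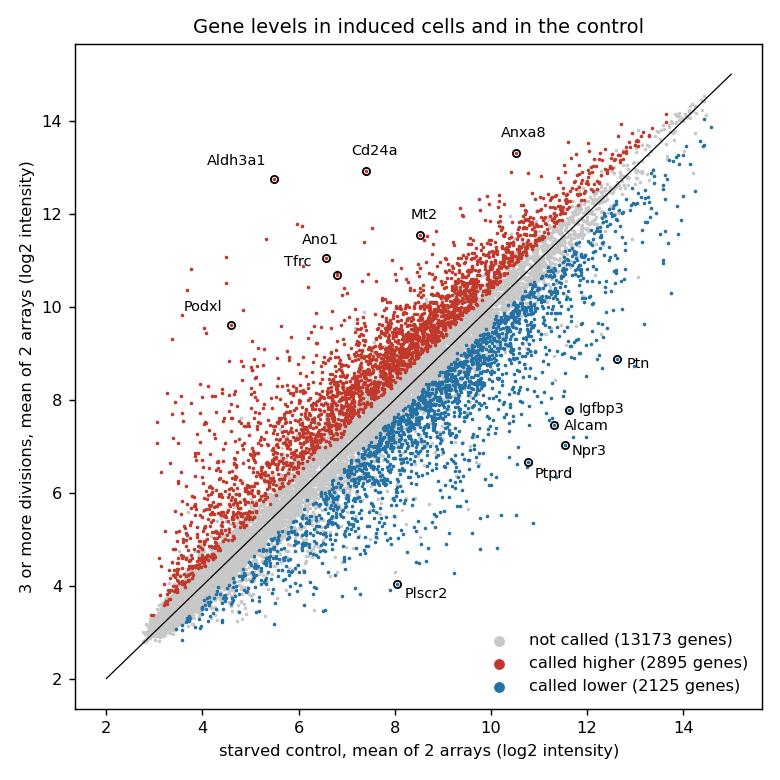
Each point is 1 of 18193 genes, placed by its mean log2 intensity on the 2 control arrays (horizontal axis) and on the 2 arrays of 3 or more divisions (vertical axis), with the line of equal levels. The 2895 genes called higher (red) and 2125 called lower (blue) lie on either side of the 13173 that were not called (grey), and Cd24a, Anxa8, Ptn and Plscr2 are among those far from the line.

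Among genes read at or above the median of all genes in both groups, the 20 largest rises were in genes of varied function, and those described here include the largest, Cd24a. Cd24a, a lipid-anchored surface glycoprotein, read 7.10 and 7.69 on the control arrays and 12.89 and 12.95 on the cohort arrays and rose by 5.52 ± 0.35 (adjusted p = 0.000183). Ano1, a calcium-activated chloride channel, read 6.58 and 6.55 on the control arrays and 11.06 and 11.02 on the cohort arrays and rose by 4.48 ± 0.34. Herc1, a very large ubiquitin ligase, read 6.94 and 6.93 on the control arrays and 10.35 and 10.47 on the cohort arrays and rose by 3.47 ± 0.12. For each of these genes both cohort arrays lay far above both control arrays. Tfrc, the transferrin receptor that brings iron into cells, read 6.41 and 7.20 on the control arrays and 10.52 and 10.84 on the cohort arrays and rose by 3.88 ± 0.38. Wasf1, part of the WAVE complex that nucleates branched actin, read 7.43 and 6.58 on the control arrays and 10.20 and 10.39 on the cohort arrays and rose by 3.29 ± 0.24. Mt2, a metal-binding metallothionein, read 8.54 and 8.53 on the control arrays and 11.35 and 11.72 on the cohort arrays and rose by 2.997 ± 0.16. The lowest cohort array was above the highest control array for all 3. Timm8a1, a chaperone for proteins imported into mitochondria, read 8.66 and 8.67 on the control arrays and 11.33 and 11.69 on the cohort arrays and rose by 2.85 ± 0.19. Anxa8, a calcium-dependent membrane-binding annexin, read 10.22 and 10.81 on the control arrays and 13.38 and 13.24 on the cohort arrays and rose by 2.79 ± 0.27. Il1rn, the secreted antagonist of the interleukin-1 receptor, read 5.93 and 7.68 on the control arrays and 10.75 and 10.75 on the cohort arrays, with the control arrays well apart, and rose by 3.94 ± 0.55.

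Other rises in this range covered the chromatin remodelling subunit Baz1a (3.35), the scaffold Homer2 (3.27), the lipid phosphatase Mtm1 (3.22), the peptidase Thop1 (2.88), the lactate and pyruvate carrier Slc16a1 (2.77) and Sbsn, a secreted protein of keratinizing epithelia (4.03). Some sizes depended on the probe set: with the mean of all probe sets of a gene, the rise was 3.20 for Ano1 (1.92 without probe sets that may match several transcripts), 1.87 for Herc1, 2.50 for Tfrc, 1.88 for Homer2 (1.82 without those probe sets), 1.68 for Thop1 and 1.62 for Slc16a1, each still called. Genes that rose from a control level below the median of all genes included several of epithelia. The largest rises of the whole comparison were among them: Aldh3a1 (7.26 ± 0.68), Mal (7.07 ± 0.52, or 5.70 with the mean of its probe sets), Krt16 (6.67 ± 0.46) and Fetub (6.58 ± 0.64). Lgr6, a receptor for R-spondins, read 3.92 and 4.15 on the control arrays and 9.71 and 9.37 on the cohort arrays (5.50 ± 0.52). Krt8, a keratin of simple epithelia, read 4.87 and 4.81 on the control arrays and 9.87 and 9.97 on the cohort arrays (5.08 ± 0.27). Podxl, a sialomucin of apical membranes, read 4.68 and 4.51 on the control arrays and 9.31 and 9.90 on the cohort arrays (5.01 ± 0.64). The 2 cohort arrays of each of these 3 genes lay above the control arrays. Near the dim end of the scale log2 differences are compressed, and no detection calls were given. With the mean of their probe sets Lgr6 rose by 3.77 and Podxl by 3.29.

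The largest falls with both groups at or above the median of all genes were in secreted, surface and intracellular proteins. Npr3, the clearance receptor for natriuretic peptides, read 11.48 and 11.60 on the control arrays and 6.37 and 7.66 on the cohort arrays and fell by 4.52 ± 0.63 (adjusted p = 0.00163). Ptprd, a receptor tyrosine phosphatase, read 10.83 and 10.71 on the control arrays and 6.74 and 6.59 on the cohort arrays and fell by 4.11 ± 0.24. Alcam, a cell adhesion molecule of the immunoglobulin family, read 11.11 and 11.51 on the control arrays and 7.35 and 7.55 on the cohort arrays and fell by 3.86 ± 0.27. Every control array was above every cohort array for these genes, with Npr3 the most spread in the cohort. Ptn, the heparin-binding growth factor pleiotrophin, read 12.65 and 12.61 on the control arrays and 9.41 and 8.36 on the cohort arrays and fell by 3.75 ± 0.60. Ecrg4, a precursor of secreted peptides, read 14.03 and 13.47 on the control arrays and 10.59 and 9.99 on the cohort arrays and fell by 3.46 ± 0.33. Ptx3, a secreted pattern-recognition protein, read 12.09 and 11.87 on the control arrays and 8.51 and 8.50 on the cohort arrays and fell by 3.48 ± 0.35. The cohort arrays of Ptx3 lay together, and those of Ptn and Ecrg4 lay apart but below the control. Fhl2, a LIM-domain cofactor, read 11.06 and 11.23 on the control arrays and 7.65 and 7.76 on the cohort arrays and fell by 3.44 ± 0.22. Further falls in this range were the lipase Lpl (-4.77), the matrix proteins Dpt (-4.51), Aspn (-4.27), Eln (-3.65), Mfap2 (-3.60) and Smoc2 (-4.21), the protease Adamts5 (-3.63), the imprinted zinc finger gene Peg3 (-3.94) and the angiotensin receptor Agtr1a (-3.67). With the mean of all probe sets of a gene the difference was -1.89 for Ptprd and -2.26 for Peg3, both still called. Among genes whose cohort mean was below the median of all genes, the phospholipid scramblase Plscr2 read 7.90 and 8.21 on the control arrays and 3.99 and 4.06 on the cohort arrays (-4.03 ± 0.24), the protease Adamts9 10.04 and 9.78 on the control arrays and 5.65 and 5.34 on the cohort arrays (-4.41 ± 0.34), and the germ line helicase Ddx4 9.59 and 7.43 on the control arrays and 4.74 and 4.21 on the cohort arrays (-4.04 ± 0.88). Adamts9 had a difference of -2.42 with the mean of its probe sets. The call on Ddx4 was lost without cohort replicate 2 (adjusted p = 0.0778) or without control replicate 1 (0.0607).

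**Figure D2:**
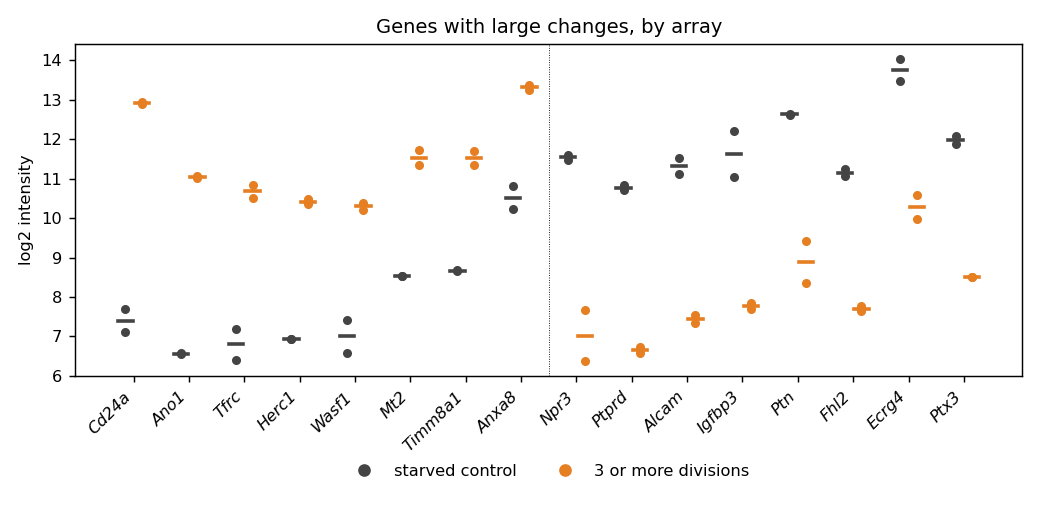
Log2 intensity (vertical axis) of 16 genes on each array of the control (dark points) and of 3 or more divisions (orange points), with bars at the mean of 2 arrays. The 8 genes on the left rose and the 8 on the right fell. These 16 genes were chosen among called genes whose arrays do not overlap between the groups.

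The lists that follow group 1031 measured genes of 54 functions or cell types. Each count of calls is to be read against the shares of all genes called higher (15.9%) and lower (11.7%). Those shares are of the main fit. With the replicate number as a block in the fit (the replicate block), 20.4% of all genes were called higher and 17.3% lower. Every count with the replicate block is to be read against these larger shares. Fewer of all genes were called when 1 array was left out, so a smaller list count there does not by itself set a list apart. Genes that make the building blocks of nucleic acids rose nearly as a group. Of 25 measured genes of nucleotide synthesis, 20 rose and 1 fell, with a median difference of 1.15. Atic, which closes the purine ring, read 9.67 and 9.84 on the control arrays and 12.24 and 12.40 on the cohort arrays and rose by 2.56 ± 0.13 (adjusted p = 7.39e-05). Ppat, the first committed step of purine synthesis, read 6.19 and 6.13 on the control arrays and 8.46 and 8.56 on the cohort arrays and rose by 2.35 ± 0.23. Cad, which starts pyrimidine synthesis, read 8.23 and 8.40 on the control arrays and 10.15 and 10.66 on the cohort arrays and rose by 2.09 ± 0.27. The cohort arrays of all 3 were above the control arrays. Dut, which removes dUTP, rose by 2.09 ± 0.18, and Rrm2, a ribonucleotide reductase subunit, by 1.91 ± 0.15. Ctps2, a form of CTP synthase, was the member that fell (-1.63 ± 0.24). Of 7 measured genes of polyamine metabolism, 2 rose, spermidine synthase (Srm, 1.58) and the polyamine-degrading Sat1 (0.80), and the antizyme Oaz2 fell (-0.93). Oaz2 was no longer called without cohort replicate 2 (adjusted p = 0.0538). Odc1, the first enzyme of that pathway, read 10.99 and 11.44 on the control arrays and 11.55 and 11.58 on the cohort arrays and did not pass (adjusted p = 0.201 in limma's test).

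The 3 promoters below are shown because they belong to risen members of these synthesis lists and hold CACGTG, an E-box that Myc can bind with its partner Max. They are from RefSeq on GRCm38.p6, each 300 bases from 250 before to 50 after the transcript start, 5′ to 3′, with the motif in capitals. The Atic window lies at chr1:71556906-71557205 on the plus strand, with the motif 7 bases before the start. That of Nme1, a nucleoside diphosphate kinase that rose by 1.37 ± 0.18, lies at chr11:93968223-93968522 on the minus strand, with the motif at 18 bases before the start. The window of Iars, the isoleucyl-tRNA synthetase, which rose by 1.04 ± 0.26, lies at chr13:49681880-49682179 on the plus strand, with the motif at 69 bases before the start.
Atic promoter: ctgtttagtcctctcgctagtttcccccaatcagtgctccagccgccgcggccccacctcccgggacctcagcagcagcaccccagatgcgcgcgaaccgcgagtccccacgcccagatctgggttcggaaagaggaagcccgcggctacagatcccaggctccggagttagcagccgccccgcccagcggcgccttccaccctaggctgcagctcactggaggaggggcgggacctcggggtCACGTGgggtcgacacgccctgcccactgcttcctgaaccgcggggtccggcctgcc
Nme1 promoter: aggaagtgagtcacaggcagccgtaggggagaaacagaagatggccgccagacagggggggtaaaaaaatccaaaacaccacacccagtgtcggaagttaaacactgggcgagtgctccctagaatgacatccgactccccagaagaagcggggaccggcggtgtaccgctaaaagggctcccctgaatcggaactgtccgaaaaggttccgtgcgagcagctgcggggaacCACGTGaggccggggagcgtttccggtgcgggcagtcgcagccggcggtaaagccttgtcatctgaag
Iars promoter: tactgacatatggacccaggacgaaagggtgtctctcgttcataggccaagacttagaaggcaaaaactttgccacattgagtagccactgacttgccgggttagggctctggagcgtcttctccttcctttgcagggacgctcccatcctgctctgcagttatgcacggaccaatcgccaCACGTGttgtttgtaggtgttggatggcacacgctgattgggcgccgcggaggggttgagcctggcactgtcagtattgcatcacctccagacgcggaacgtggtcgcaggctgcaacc

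CACGTG reads the same on both strands. It was present in 5 of 28 promoters of nucleotide synthesis genes (17.9%), 4 of 12 of tRNA synthetases (33.3%), 6 of 27 of mitochondrial ribosomal protein genes (22.2%) and 0 of 5 of polyamine genes, beside 2349 of 32851 promoters in the table (7.15%). A gene can have several promoters there, and a match is a description of these letters and not a binding site.

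Among enzymes and factors that turn messages into protein all calls were higher, though a part of each list did not pass the test. Of 19 cytosolic tRNA synthetases, 10 rose and 0 fell, with a median of 0.80, and Vars, which charges the valine tRNA, read 7.53 and 7.82 on the control arrays and 9.01 and 9.29 on the cohort arrays (1.47 ± 0.25). Kars, the lysine enzyme, read 10.12 and 10.08 in the control and 11.21 and 11.35 in the cohort (1.18 ± 0.12). Farsa, a subunit of the phenylalanine enzyme, rose by 1.34 ± 0.15, but without probe sets that may match several transcripts its difference was -0.25. The cohort was above the control on both arrays for the 3 enzymes. Without control replicate 1 or without cohort replicate 2, 6 of the synthetases were called. Of 22 translation factors, 15 rose and 0 fell (median 0.71), among them Eef1e1, a scaffold of the synthetase complex, at 9.59 and 9.98 in the control and 11.22 and 11.46 in the cohort (1.55 ± 0.23), and Eif3b, an initiation factor subunit, at 9.84 and 10.09 in the control and 11.003 and 11.15 in the cohort (1.11 ± 0.18).

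Of 29 mitochondrial ribosomal proteins, 25 rose and 0 fell, with a median of 0.74. Mrpl12 read 9.59 and 9.57 on the control arrays and 10.88 and 11.16 on the cohort arrays (1.44 ± 0.15, adjusted p = 0.000516). Mrpl15 read 10.38 and 10.51 in the control and 11.66 and 11.98 in the cohort (1.37 ± 0.18), and all 29 had a difference above 0. Of 18 cytosolic ribosomal proteins, 3 rose (16.7%, near the share of all genes) and 0 fell, with a median of 0.19. Rpl8 read 13.06 and 13.17 in the control and 13.60 and 13.72 in the cohort (0.55 ± 0.11). That list moved both ways with the settings: 0 were called without cohort replicate 2 and 1 with only the 4 compared arrays. The count was 6 with median centring, with the mean of all probe sets or with an intensity trend, and 10 with a floor of 16 or 64. In the main fit 17 of the 18 had a difference above 0. Rps18 had a difference of -0.07 without probe sets that may match several transcripts.

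Most measured chaperones, genes of nuclear transport and splicing factors were also called higher. Of 19 cytosolic and mitochondrial chaperones, 17 rose and 0 fell (median 0.82). Trap1, the mitochondrial form of Hsp90, read 9.23 and 9.14 on the control arrays and 10.63 and 10.86 on the cohort arrays (1.57 ± 0.18), and the mitochondrial folding chamber subunit Hspd1 read 11.91 and 12.13 in the control and 13.44 and 13.59 in the cohort (1.50 ± 0.17). The groups do not overlap for either gene. Without control replicate 1, 10 chaperones were called, and without cohort replicate 2, 9. Of 26 genes of nuclear transport, 23 rose and 0 fell (median 0.98), led by the pore protein Nup210 at 4.38 and 4.48 in the control and 7.28 and 7.79 in the cohort (3.11 ± 0.18, or 1.54 with the mean of its probe sets). Rcc1, which loads Ran with GTP, read 6.74 and 6.87 in the control and 8.30 and 8.47 in the cohort (1.58 ± 0.15). The cohort arrays of both were above the control. Rangap1, which ends the Ran cycle, rose by 1.51 ± 0.17, though the difference was 0.07 without probe sets that may match several transcripts. Of 26 splicing factors, 18 rose and 0 fell (median 0.73), with Snrpf, a core snRNP protein, at 9.51 and 9.28 in the control and 10.60 and 10.81 in the cohort (1.31 ± 0.15). Without cohort replicate 2, 11 splicing factors were called, and without probe sets that may match several transcripts, 8.

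Of 22 genes of homologous recombination and mismatch repair, 16 rose and 0 fell, with a median of 0.90. The exonuclease Exo1 read 5.52 and 5.001 on the control arrays and 7.57 and 8.07 on the cohort arrays (2.56 ± 0.27). Brca1 read 5.66 and 5.33 in the control and 7.15 and 7.55 in the cohort (1.85 ± 0.20). Both were read below the median of all genes in the control, as were many of the list, 9 of which lay below it in both groups. Mre11a, the nuclease of the break-sensing complex, rose by 1.83 ± 0.13, or 0.28 without probe sets that may match several transcripts, which was not called. Of 30 proteasome subunits, 8 rose and 0 fell, with a median of 0.26. Psma7 read 11.18 and 11.29 in the control and 11.85 and 12.05 in the cohort (0.72 ± 0.15), and Psmd3 read 9.31 and 9.37 in the control and 9.90 and 10.04 in the cohort (0.63 ± 0.11). The proteasome count is small and unstable, with 2 and 3 calls without control replicates 1 and 2, and 3 and 1 without cohort replicates 1 and 2. Median centring of the arrays gave 14 calls.

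Of 22 amino acid transporters, 6 rose and 4 fell (median 0.36). Slc38a4, a carrier of small neutral amino acids, read 7.04 and 6.50 on the control arrays and 8.62 and 8.60 on the cohort arrays (1.84 ± 0.21). Slc1a5, the glutamine carrier, read 6.98 and 6.43 in the control and 8.04 and 8.15 in the cohort (1.39 ± 0.24). Slc1a3, a glutamate carrier, fell (-1.77 ± 0.40), although the call was lost without cohort replicate 1 (adjusted p = 0.0846) or control replicate 1 (0.0634). With the replicate number as a block in the fit, where 20.4% of all genes were called higher and 17.3% lower, 10 rose, and without any 1 of the 4 arrays 2 fell.

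**Figure D3:**
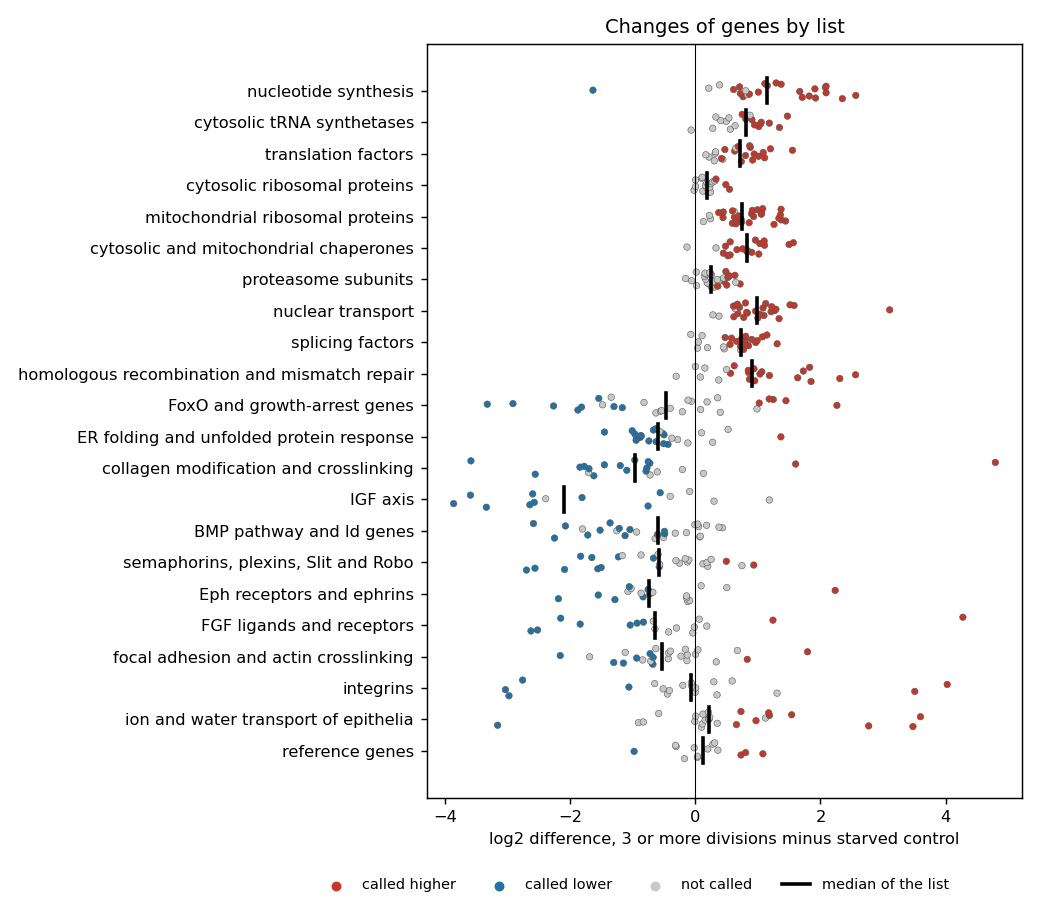
Each point is a measured gene of the list named on the left, placed by its log2 difference, 3 or more divisions minus control (horizontal axis), with red for called higher, blue for called lower and grey for not called. Black bars mark list medians, which run from -2.10 for the IGF axis to 1.15 for nucleotide synthesis, and reference genes have a median of 0.12.

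Genes known for arrest and for FoxO activity moved both ways. Of 28 measured, 8 fell and 5 rose, with a median of -0.47, and with the replicate block 13 fell and 8 rose. Gas6, a ligand of TAM receptors named for its rise in arrested fibroblasts, read 12.29 and 12.08 on the control arrays and 9.36 and 9.18 on the cohort arrays and fell by 2.91 ± 0.16 (adjusted p = 0.000125). Pdk4, a kinase that holds pyruvate dehydrogenase inactive, read 7.42 and 8.02 on the control arrays and 5.44 and 5.47 on the cohort arrays and fell by 2.26 ± 0.31. Both control arrays of Gas6 and Pdk4 lay above both cohort arrays. Txnip, which restrains glucose uptake, read 11.27 and 10.58 on the control arrays and 9.61 and 8.49 on the cohort arrays and fell by 1.87 ± 0.52. Cited2, a transcription cofactor, read 12.08 and 11.78 in the control and 10.43 and 9.79 in the cohort and fell by 1.82 ± 0.28. Gas2, a cytoskeletal protein of arrested cells, fell by 3.32 ± 0.39, but its difference was 0.03, and not called, without probe sets that may match several transcripts. Ddit4, an inhibitor of mTORC1, went the other way at 7.14 and 7.22 in the control and 9.63 and 9.27 in the cohort (2.26 ± 0.20). Mxi1, a partner of Max that opposes Myc, rose by 1.45 ± 0.12. The genes for the factors Foxo1 (-0.63 ± 0.21) and Foxo3 (0.40 ± 0.13) did not pass (adjusted p = 0.057 and 0.0502 in limma's test). Without cohort replicate 2, 5 members fell. With the mean of its probe sets the difference of Gas6 was -1.67.

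GTAAACA, a motif that forkhead factors can bind, was searched on both strands and was present in 6 of 30 promoters of this list, beside 1199 of all 32851 (3.65%). The promoter of Txnip is shown as the fallen member with the largest fall among those that hold it, from chr3:96557707-96558006 on the plus strand of GRCm38.p6 (RefSeq), with the motif in capitals at 121 bases before the start.
Txnip promoter: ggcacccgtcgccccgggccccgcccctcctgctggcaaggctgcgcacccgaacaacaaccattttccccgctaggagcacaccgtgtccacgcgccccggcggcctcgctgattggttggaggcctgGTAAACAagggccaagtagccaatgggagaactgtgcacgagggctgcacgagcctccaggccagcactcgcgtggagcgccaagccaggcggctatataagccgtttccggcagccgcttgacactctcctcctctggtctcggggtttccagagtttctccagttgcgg

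Calls among recycling genes were mostly lower. Of 21 autophagy genes, 5 fell and 1 rose, but the median was -0.03 and 10 of the 21 had a difference above 0. Of 25 lysosomal genes 8 fell and 2 rose, with a median of -0.23. Ulk2, a kinase that starts autophagy, read 9.04 and 9.05 on the control arrays and 8.01 and 7.47 on the cohort arrays (-1.31 ± 0.18). Wipi1, which binds the growing autophagosome, read 9.41 and 9.63 in the control and 8.42 and 8.13 in the cohort (-1.24 ± 0.14). Their cohort arrays lay below the control. Atg7 was the member that rose (0.82 ± 0.16). The lysosomal protease Ctso read 9.45 and 8.82 in the control and 7.67 and 6.997 in the cohort (-1.80 ± 0.32), while the galactosidase Gla read 6.76 and 7.08 in the control and 9.21 and 9.39 in the cohort and rose by 2.38 ± 0.32 (1.16 with the mean of its probe sets). Without cohort replicate 2, 2 autophagy and 3 lysosomal genes fell. Lysosomal falls numbered 5 without control replicate 1 and 4 without control replicate 2, and 2 autophagy genes rose with the replicate block or without control replicate 2.

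Of 18 clock genes, 3 fell and 2 rose, and Rora, a nuclear receptor of the clock, read 9.84 and 9.64 on the control arrays and 7.91 and 7.67 on the cohort arrays (-1.95 ± 0.19). Bhlhe40, a repressor of clock genes, read 8.27 and 8.80 in the control and 9.86 and 9.63 in the cohort and rose by 1.22 ± 0.31, a call lost without control replicate 1 (adjusted p = 0.116), cohort replicate 1 (0.104) or cohort replicate 2 (0.0735). With the replicate block 6 clock genes fell. Clock falls numbered 1 without control replicate 1 or cohort replicate 2, and rises 0 without cohort replicate 2 and 1 without each other array. Of 19 hypoxia targets, 7 rose and 3 fell (5 fell with the replicate block, and 4 rose without control replicate 1). Egln3, an oxygen-sensing prolyl hydroxylase, read 4.61 and 5.39 on the control arrays and 8.08 and 8.42 on the cohort arrays (3.25 ± 0.35). Epas1, the transcription factor HIF-2α, read 6.56 and 6.79 in the control and 9.19 and 8.82 in the cohort (2.33 ± 0.22). The peptide hormone Adm read 12.16 and 12.04 in the control and 9.51 and 9.45 in the cohort and fell by 2.62 ± 0.24. The targets moved both ways, and the arrays of the groups were apart for all 3.

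Most measured genes of protein folding in the endoplasmic reticulum were called lower. Of 24 genes of folding and the unfolded protein response, 16 fell and 1 rose, with a median of -0.60. Xbp1, a transcription factor of that response, read 11.78 and 11.85 on the control arrays and 10.90 and 10.80 on the cohort arrays and fell by 0.96 ± 0.12 (adjusted p = 0.00111). Sel1l, part of the complex that returns misfolded proteins to the cytosol, read 9.93 and 9.98 on the control arrays and 9.10 and 8.79 on the cohort arrays and fell by 1.01 ± 0.13. Dnajb9, a co-chaperone, read 10.22 and 10.27 in the control and 9.28 and 9.32 in the cohort and fell by 0.94 ± 0.10. All 3 had tight arrays, with the cohort below the control. Hspa5, the main Hsp70 of this compartment, fell by 0.44 ± 0.11. Ddit3, the stress factor CHOP, fell by 1.45 ± 0.35, a call that was lost without cohort replicate 2 (adjusted p = 0.115) or control replicate 2 (0.0891). The co-chaperone-like Sdf2l1 was the member that rose, at 6.40 and 6.70 in the control and 7.60 and 8.24 in the cohort (1.37 ± 0.23). The count of falls was 7 without control replicate 2, 10 without cohort replicate 1 and 7 without cohort replicate 2, and with the replicate block 2 members rose.

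Most measured enzymes that modify and crosslink collagen were called lower as well. Of 21 measured, 14 fell and 2 rose, with a median of -0.97. Lox, which oxidizes lysines to start crosslinks, read 14.23 and 14.27 on the control arrays and 12.64 and 12.31 on the cohort arrays and fell by 1.77 ± 0.20. Fkbp14, a prolyl isomerase of the endoplasmic reticulum, read 10.26 and 10.21 on the control arrays and 8.52 and 8.27 on the cohort arrays and fell by 1.84 ± 0.14. P4ha1, a subunit of the collagen prolyl hydroxylase, read 11.01 and 11.06 in the control and 9.31 and 9.52 in the cohort and fell by 1.62 ± 0.17. The 2 groups were well apart for these enzymes. Pcolce2, an enhancer of procollagen cleavage, rose instead, at 6.55 and 5.62 in the control and 11.001 and 10.76 in the cohort (4.79 ± 0.41), as did Loxl4, a relative of Lox (1.60 ± 0.39). Without control replicate 1 or cohort replicate 1, 1 member rose. Adamts3, a procollagen protease, had the largest fall of the list (-3.58 ± 0.82), but the call was lost without cohort replicate 2 (adjusted p = 0.104) or control replicate 1 (0.0816).

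In the insulin-like growth factor axis 9 of 14 members fell and 0 rose, with a median of -2.10. Igfbp3, the main serum carrier of these factors, read 11.04 and 12.22 on the control arrays and 7.70 and 7.85 on the cohort arrays and fell by 3.86 ± 0.37 (adjusted p = 0.000447). Pappa, a protease that frees the factors from their carriers, read 10.44 and 10.69 on the control arrays and 6.52 and 7.43 on the cohort arrays and fell by 3.59 ± 0.54. Irs1, the adaptor below the receptor, read 12.73 and 12.46 in the control and 11.02 and 10.56 in the cohort and fell by 1.81 ± 0.23. Every control array was above every cohort array for these members. The ligand Igf1 read 10.91 and 12.14 in the control and 8.66 and 7.71 in the cohort and fell by 3.34 ± 0.64, a call lost without cohort replicate 2 (adjusted p = 0.056). The carrier Igfbp2 fell by 2.64 ± 0.61, and that call was lost without any 1 of the 4 arrays (adjusted p from 0.0538 to 0.0786). Without cohort replicate 2, 5 members of the axis fell. Igfbp5 read 10.43 and 9.39 in the control and 11.47 and 8.95 in the cohort and Igfbp6 6.90 and 8.69 in the control and 9.06 and 8.89 in the cohort, and neither passed (adjusted p = 0.858 and 0.28 in limma's test).

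In other growth factor families more members fell than rose. In the bone morphogenetic protein pathway 12 of 27 members fell and 0 rose (median -0.60). The ligand Bmp4 read 12.08 and 11.66 on the control arrays and 9.72 and 9.52 on the cohort arrays (-2.25 ± 0.34), and the receptor Bmpr1b read 8.06 and 8.18 in the control and 6.39 and 6.42 in the cohort (-1.72 ± 0.30). For both the cohort was lower on each array. The target genes Id1 (0.43 ± 0.36), Id2 (0.38 ± 0.45) and Id3 (0.05 ± 0.24) did not pass. With the replicate block Id1 was called (adjusted p = 0.0298 in limma's test), the 1 member higher there, and without cohort replicate 2 the pathway had 7 falls. In the fibroblast growth factor family 7 of 17 fell and 2 rose (median -0.64). Fgf7, a ligand that mesenchyme sends to epithelium, read 11.96 and 11.10 in the control and 9.07 and 8.95 in the cohort (-2.52 ± 0.38). Fgfbp1, a carrier of these ligands made by epithelia, read 3.97 and 5.13 in the control and 8.83 and 8.82 in the cohort and rose by 4.27 ± 0.31. Without cohort replicate 2, 4 of this family fell.

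Calls among guidance molecules were mostly lower. Of 26 semaphorins, plexins, Slit and Robo genes, 10 fell and 2 rose (median -0.57). Sema3a read 10.74 and 10.56 on the control arrays and 8.59 and 7.31 on the cohort arrays (-2.70 ± 0.42). Its relative Sema3d read 10.04 and 9.84 in the control and 7.88 and 6.87 in the cohort (-2.56 ± 0.37), and the receptor Nrp1 read 12.01 and 11.18 in the control and 9.99 and 9.90 in the cohort (-1.65 ± 0.39). The cohort arrays of all 3 were below the control arrays. Without cohort replicates 1 and 2 the list had 6 and 5 falls, and the rises numbered 1 without control replicate 1 or cohort replicate 1 and 0 without the other arrays. Of 18 Eph receptors and ephrins, 7 fell and 1 rose (11 and 2 with the replicate block), and Ephb3 read 9.70 and 9.83 in the control and 8.47 and 7.95 in the cohort (-1.55 ± 0.18). Efnb2, an ephrin ligand, read 10.39 and 10.52 in the control and 9.41 and 9.40 in the cohort (-1.05 ± 0.17). The ephrin Efna3 rose by 2.23 ± 0.51, a call lost without control replicate 1 (adjusted p = 0.0802), cohort replicate 1 (0.0653) or cohort replicate 2 (0.0711). Eph falls numbered 4 and 3 without cohort replicates 1 and 2.

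In the Hedgehog pathway 5 of 14 members fell and 3 rose. Cdon, a co-receptor, read 11.73 and 10.83 on the control arrays and 8.70 and 7.99 on the cohort arrays (-2.93 ± 0.53, or -1.77 with the mean of its probe sets). Ptch1, the receptor and a target of the pathway, rose, at 7.95 and 7.63 in the control and 8.90 and 9.10 in the cohort (1.21 ± 0.15), while the transcription factor Gli2 fell (-1.18 ± 0.20). Falls numbered 3 without control replicate 1 or without either cohort replicate, and rises 1 without control replicate 2 or either cohort replicate. In the Notch pathway 4 of 21 members rose (19%) and 3 fell (14.3%), near the shares of all genes (6 fell with the replicate block). Dlk1, a membrane ligand that dampens Notch, read 11.34 and 11.68 in the control and 8.56 and 7.60 in the cohort (-3.43 ± 0.50, or -1.23 without probe sets that may match several transcripts). Notch4 read 3.66 and 3.86 in the control and 5.41 and 5.34 in the cohort (1.62 ± 0.21). Notch rises numbered 1 without control replicate 1 and 2 without either cohort replicate.

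Of 19 integrins, 2 rose (10.5%) and 4 fell (21.1%), or 4 and 7 with the replicate block, so the share of rises was below that of all genes. The 2 that rose, Itgb4 and Itga6, pair as the laminin receptor of hemidesmosomes. Itgb4 read 4.66 and 4.94 on the control arrays and 9.02 and 8.62 on the cohort arrays and rose by 4.02 ± 0.35 (adjusted p = 0.00034). Itga6 read 6.49 and 6.24 on the control arrays and 9.81 and 9.93 on the cohort arrays and rose by 3.51 ± 0.26. Itga1, of a collagen receptor, read 9.30 and 9.32 on the control arrays and 6.17 and 6.50 on the cohort arrays and fell by 2.98 ± 0.28. All cohort arrays were above the control for the first pair and below it for Itga1. Itgbl1, a secreted protein related to integrin β chains, fell by 2.76 ± 0.32, and Itga8 by 3.03 ± 0.94, a call lost without control replicate 2 (adjusted p = 0.211), cohort replicate 1 (0.196) or cohort replicate 2 (0.107). Without any 1 of these 3 arrays 2 integrins fell. The fibronectin receptor chain Itga5 read 7.34 and 7.67 in the control and 7.35 and 7.67 in the cohort (adjusted p = 0.999 in limma's test).

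Of 24 syndecans, glypicans, hyaluronan genes and growth factors such as Mdk and Ptn, 8 fell and 3 rose. Cd44, the hyaluronan receptor, read 9.46 and 10.37 on the control arrays and 12.48 and 12.28 on the cohort arrays and rose by 2.46 ± 0.36. Mdk, the midkine growth factor and a relative of Ptn, read 7.40 and 8.15 in the control and 5.06 and 5.61 in the cohort and fell by 2.44 ± 0.36. Gpc3, a glypican, read 10.70 and 10.22 in the control and 8.25 and 8.32 in the cohort and fell by 2.18 ± 0.28. The groups did not overlap for these 3 members. Of 26 focal adhesion genes, 7 fell and 2 rose (14 fell with the replicate block, 4 without cohort replicate 2). Tns3, which ties integrins to actin, read 12.92 and 12.48 in the control and 10.68 and 10.40 in the cohort (-2.16 ± 0.22). Ezr, which ties the membrane of microvilli to actin, read 8.95 and 8.74 in the control and 10.65 and 10.63 in the cohort and rose by 1.79 ± 0.19. Each was apart between the groups. Focal adhesion rises numbered 1 without control replicate 1 or either cohort replicate. Of 10 caveolar genes, 2 fell and 1 rose, Cavin4 (2.61 ± 0.34), and 6 fell with the replicate block. Without control replicate 1 or cohort replicate 2, 0 caveolar genes fell. Of 20 annexins and S100 proteins, 3 rose (15%, near the share of all genes) and 0 fell, and 6 rose with the replicate block.

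Calls among secreted immune genes went both ways. Of 34 chemokines and cytokines, 4 fell and 1 rose (7 and 4 with the replicate block), a share of falls (11.8%) near that of all genes, and 22 lay below the median of all genes in both groups. Csf1, the macrophage growth factor, read 11.30 and 11.12 on the control arrays and 9.12 and 9.03 on the cohort arrays and fell by 2.13 ± 0.21. Cxcl12, a chemokine of stroma, read 12.35 and 11.76 on the control arrays and 10.25 and 10.20 on the cohort arrays and fell by 1.83 ± 0.35. Cxcl15, another chemokine, fell by 2.60 ± 0.44, and the member that rose was Il1rn, given above. Without control replicate 2 or cohort replicate 1, 2 members rose. Of 15 genes listed under complement, which include secreted C1q-related proteins (C1qtnf genes), 6 fell and 1 rose (2 rose with the replicate block). The median was -1.22. C1qtnf3 had the largest fall of the list (-5.52 ± 1.26), a call lost without cohort replicate 1 or control replicate 2. C1qtnf2, a secreted relative of C1q, read 8.15 and 7.68 in the control and 5.09 and 4.72 in the cohort and fell by 3.01 ± 0.23. Masp1, a protease of the lectin pathway, fell by 1.57 ± 0.30, and C1qtnf1 rose by 1.51 ± 0.22. Complement falls numbered 3 without control replicate 1 or cohort replicate 1.

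Regulators of epithelia were called higher about as often as all genes. Of 21 epithelial transcription and splicing factors, 3 rose (14.3%) and 0 fell, and 18 lay below the median of all genes in both groups. Grhl3, a grainyhead factor of barrier epithelia, read 3.85 and 4.05 on the control arrays and 7.30 and 6.88 on the cohort arrays and rose by 3.14 ± 0.32 (adjusted p = 0.000534). Grhl1, its relative, read 4.32 and 3.83 on the control arrays and 5.84 and 6.22 on the cohort arrays and rose by 1.96 ± 0.23. Zfp750, a factor of keratinocyte differentiation, rose by 1.10 ± 0.17. Grhl2 read 5.003 and 5.23 in the control and 4.98 and 4.92 in the cohort and the splicing factor Esrp1 3.31 and 3.13 in the control and 3.59 and 3.06 in the cohort, and neither passed (adjusted p = 0.408 and 0.744 in limma's test). With the replicate block 1 of the list fell.

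Among 27 epithelial serine proteases and inhibitors, 5 rose and 5 fell. Serpinb5, the inhibitor maspin, read 4.82 and 4.40 on the control arrays and 7.86 and 7.35 on the cohort arrays and rose by 2.996 ± 0.24 (1.83 without probe sets that may match several transcripts). St14, the protease matriptase, read 4.47 and 4.21 in the control and 6.09 and 6.51 in the cohort and rose by 1.96 ± 0.28. Serpinf1, a secreted factor of stroma, read 13.68 and 13.49 in the control and 11.03 and 10.99 in the cohort and fell by 2.58 ± 0.25. Serpinb9, an inhibitor of granzyme B, read 9.18 and 9.61 in the control and 6.38 and 5.72 in the cohort and fell by 3.34 ± 0.33. The groups were apart for all 4 of these genes. Of 25 genes of ion and water transport in epithelia, 9 rose and 1 fell (2 with the replicate block). Aqp5, a water channel, read 4.67 and 4.86 in the control and 7.57 and 7.51 in the cohort (2.77 ± 0.26). Aqp3, a channel for water and glycerol, read 5.27 and 5.26 in the control and 8.84 and 8.64 in the cohort (3.48 ± 0.41, or 1.98 with the mean of its probe sets). Both channels were below the median of all genes on the control arrays. Car12, a carbonic anhydrase, rose by 3.60 ± 0.52 (1.40 with the mean of its probe sets). The sodium pump subunit Atp1b1 fell by 3.16 ± 0.43, but its difference was -0.30 and not called without probe sets that may match several transcripts.

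Of 28 genes of xenobiotic metabolism, 7 rose and 5 fell (9 fell with the replicate block). The largest rise of the list was that of Aldh3a1, given above. The alcohol dehydrogenases went apart. Adh1 read 9.21 and 9.39 on the control arrays and 5.73 and 5.70 on the cohort arrays and fell by 3.58 ± 0.48. Adh7, the form of stratified epithelia, read 8.51 and 7.52 on the control arrays and 10.67 and 10.74 on the cohort arrays and rose by 2.69 ± 0.30. Both changes were larger than the spread of their arrays. Falls numbered 3 without control replicate 1 or cohort replicate 1 and 2 without cohort replicate 2. Of 16 genes of iron and haem, 3 rose (18.8%) and 2 fell (12.5%), near the shares of all genes (4 fell with the replicate block). Slc40a1, the exporter ferroportin, read 9.83 and 9.54 in the control and 8.25 and 8.02 in the cohort and fell by 1.55 ± 0.17, while the importer Tfrc rose as given above. The haem oxygenase Hmox1 rose by 1.22 ± 0.27, a call lost without control replicate 1 (adjusted p = 0.07) or cohort replicate 1 (0.0715).

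Calls among other transcription factor families went both ways. Of 16 Sox genes, 2 rose (12.5%) and 1 fell (6.25%), shares below those of all genes (4 rose with the replicate block). Sox21, known from neural progenitors and skin, read 7.67 and 7.91 on the control arrays and 9.83 and 10.03 on the cohort arrays and rose by 2.15 ± 0.23. Sox13, of the SoxD class, read 5.15 and 5.90 in the control and 7.86 and 8.26 in the cohort and rose by 2.53 ± 0.40. Sox4 fell by 0.76 ± 0.16, with a call lost without control replicate 2 (adjusted p = 0.0516) or cohort replicate 2 (0.0662). Of 20 Fox genes, 2 rose and 4 fell (20%). Foxd1, a factor of kidney stroma, read 5.48 and 4.44 in the control and 6.99 and 7.48 in the cohort (2.28 ± 0.42), and Foxp2 read 10.23 and 10.09 in the control and 7.95 and 8.04 in the cohort (-2.17 ± 0.25). Foxc1, of mesenchyme, read 10.01 and 9.94 in the control and 8.70 and 8.48 in the cohort (-1.39 ± 0.17). Fox rises numbered 1 without either control replicate, and falls 2 without cohort replicate 2. Of 21 nuclear receptors, 3 rose (14.3%) and 2 fell (9.52%), near the shares of all genes. Esrra, a regulator of mitochondrial genes, read 7.33 and 7.55 in the control and 8.41 and 8.42 in the cohort (0.98 ± 0.13). Nuclear receptor rises numbered 1 without control replicate 1 or either cohort replicate, and falls 1 without control replicate 2 and 0 without control replicate 1 or cohort replicate 2. Of 19 retinoid genes 1 rose, Crabp2, and 0 were called without either cohort replicate, while 3 rose and 3 fell with the replicate block. Crabp2 also lost its call without control replicate 1 (adjusted p = 0.187). Of 15 prostaglandin genes, 2 rose (13.3%) and 1 fell (6.67%), shares below those of all genes (4 and 3 with the replicate block). The member that fell was the receptor Ptgfr (-2.33 ± 0.33).

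Markers of cell identity moved beside these changes. Of the 15 fibroblast markers, 9 fell and 0 rose (1 rose with the replicate block), with a median of -0.85. Pdgfrb, a receptor for platelet-derived growth factor, read 11.52 and 11.79 on the control arrays and 9.66 and 9.74 on the cohort arrays and fell by 1.96 ± 0.17. Dcn, the proteoglycan decorin, read 13.59 and 13.64 in the control and 12.08 and 11.19 in the cohort and fell by 1.98 ± 0.35. The intermediate filament gene Vim (0.07 ± 0.10) and the limb mesenchyme factor Prrx1 (-0.06 ± 0.19) did not pass. The summed linear level of the list was 140529 and 136058 on the control arrays and 99367 and 84893 on the cohort arrays. Marker falls numbered 5 without control replicate 2 and 4 without cohort replicate 2. Of 8 tendon markers, 5 fell and 0 rose (median -2.40), and their sum went from 21725 and 15914 to 6284 and 4854. Tendon falls numbered 2 without control replicate 1 or either cohort replicate.

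Of 9 keratinocyte markers 5 rose and 0 fell, and 7 lay below the median of all genes in both groups. Their sum was 347 and 275 on the control arrays and 1845 and 1790 on the cohort arrays. Most of that rise in the sum came from Krt14. Krt14, a basal keratin, read 4.26 and 4.70 on the control arrays and 10.55 and 10.48 on the cohort arrays and rose by 6.04 ± 0.50 (3.74 with the mean of its probe sets). Its partner Krt5 read 5.19 and 5.21 in the control and 5.05 and 5.31 in the cohort and the basal factor Trp63 5.65 and 5.08 in the control and 4.70 and 4.84 in the cohort, both below the median of all genes on all 4 arrays, and neither passed (adjusted p = 0.94 and 0.26 in limma's test). Keratinocyte rises numbered 2 without control replicate 2, and 3 and 2 without cohort replicates 1 and 2. Of the 16 blood cell markers 0 were called (1 rose with the replicate block), with 15 below the median of all genes in both groups and sums of 1659, 1049, 1842 and 1185 on the 4 arrays. Ptprc, which defines white blood cells, read 3.74 and 3.75 in the control and 3.56 and 4.12 in the cohort. Of 13 liver markers 2 rose (1 without control replicate 1 or either cohort replicate, and 1 fell with the replicate block), and all 13 lay below that median in both groups, with sums of 260.5, 284, 298 and 318. Alb, the liver's albumin, read 3.75 and 3.67 in the control and 3.47 and 3.63 in the cohort. The part of other cell types in the results above was not tested. The 10 melanocyte and Schwann markers held 1 fall, Pmp22 (-2.07 ± 0.24), with sums of 6232 and 6806 in the control and 2338 and 1424 in the cohort. Their median difference was only -0.12, and 8 of the 10 lay below the median of all genes in both groups. The 11 cartilage and bone markers held 3 falls and 1 rise, with sums of 2479 and 1189 against 595 and 411, and the falls numbered 1 without control replicate 2 or cohort replicate 1 and 0 without cohort replicate 2. The median difference of these 11 was -0.15, and 9 of them lay below the median of all genes in both groups. The rise, Ibsp, was lost without control replicate 1 or either cohort replicate. The mesothelial and pericyte list held 1 rise, Msln, and 1 fall of 13 (2 falls with the replicate block), with sums of 769.7 and 1332 against 1455 and 1096. Msln, which marks mesothelium, read 3.51 and 3.58 in the control and 8.59 and 7.59 in the cohort, and the fall was lost without either cohort replicate. The 15 germ line markers held 1 rise and 1 fall (2 rises with the replicate block), and 13 lay below the median of all genes in both groups. Their sums were 1032 and 442 against 372 and 396, and the drop came from Ddx4, the member that fell. Both calls were lost without cohort replicate 2, the rise also without cohort replicate 1 and the fall also without control replicate 1. The 11 trophoblast markers held 1 rise, with sums of 240.8 and 287 against 273 and 285, and 0 without any 1 array. Of 14 genes often used as references 3 rose and 1 fell: Gusb (1.08), Pgk1 (0.80), Ywhaz (0.73) and B2m (-0.98).

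Set against the cohort of 2 divisions, the nearest induced group, 1087 genes were called (5.97%), 629 higher (3.46%) and 458 lower (2.52%). These groups belong to sets of arrays registered apart, so the array set and the cohort cannot be told apart. Them5, a mitochondrial thioesterase, read 5.35 and 5.13 after 2 divisions and 7.91 and 8.38 after 3 or more, a difference of 2.90 ± 0.21 (adjusted p = 0.00358 in limma's test). Plscr2 read 7.51 and 7.49 and 3.99 and 4.06, a difference of -3.47 ± 0.24 (adjusted p = 0.00304). The means of Plscr2 were 8.0, 7.90 and 7.50 after 0, 1 and 2 divisions, near its control mean of 8.05. Of the 5 groups, the cohort of 3 or more divisions alone had the low level, on both its arrays. Egfl6, a secreted protein with EGF repeats, read 5.94 and 6.96 and 4.19 and 3.62 (-2.55 ± 0.52). Slco1a5, a transporter of organic anions, read 5.88 and 6.19 and 8.92 and 9.60 (3.23 ± 0.66). Smarca1, a chromatin remodelling ATPase, read 8.38 and 8.08 and 5.76 and 5.42 (-2.64 ± 0.58). The 2 groups were apart for each. Against the control, Them5 rose by 4.87 and Slco1a5 by 4.22. With the mean of all probe sets of a gene, these rises were 2.52 and 2.23, both still called.

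Of the 12 genes named in this comparison by size, 10 lost the call without 1 array, all 10 of them without cohort replicate 2 (for Slco1a5 the adjusted p was then 0.263, for Smarca1 0.275 and for Egfl6 0.263), 7 without replicate 2 of the cohort of 2 divisions, 6 without cohort replicate 1 and 4 without replicate 1 of 2 divisions. Them5 and Plscr2 kept it in all 4 cases. Over all genes, 6 were called without cohort replicate 2, 16 without replicate 2 of 2 divisions, 167 without its replicate 1 and 485 without cohort replicate 1, against 3449 with the replicate block. Herc1 shows another course, with means of 10.50, 10.22 and 10.36 after 0, 1 and 2 divisions beside 10.41 after 3 or more and 6.94 in the control. Cd24a ran 9.13, 10.29, 11.39 and 12.92 over the 4 cohorts. Over the 2895 genes called higher, the median level above control was 0.32, 0.36, 0.45 and 0.95 after 0, 1, 2 and 3 or more divisions, and over the 2125 called lower it was -0.30, -0.34, -0.45 and -0.94. The last of these values chose the genes, and all share the control, so they are a description.

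**Figure D4:**
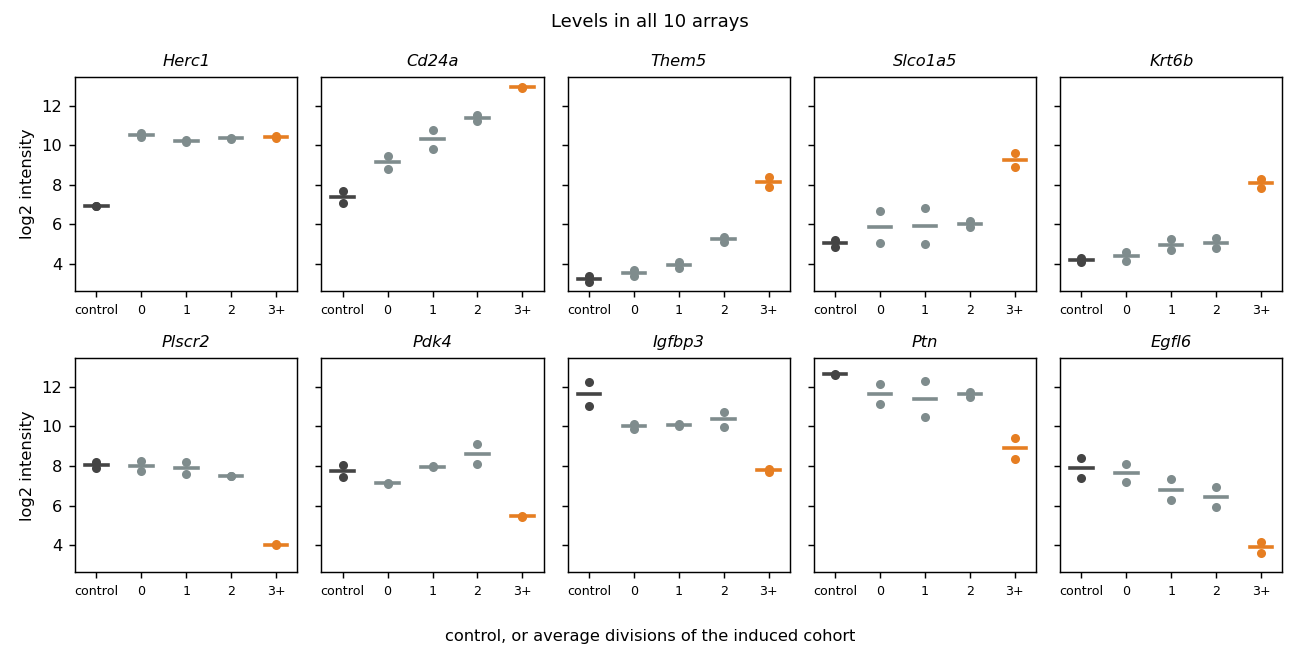
Log2 intensity (vertical axis) of 10 genes on all 10 arrays, for the control and the cohorts of 0, 1, 2 and 3 or more divisions (horizontal axis), with bars at the mean of 2 arrays and orange for 3 or more divisions. Herc1 stands at a like level in every induced cohort, Cd24a is higher in each further cohort, and Plscr2 is low only on the 2 orange arrays.

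For some genes the value depends on the probe set that was read. Of 1988 genes with 2 or more probe sets called, 22 had probe sets called in opposite directions. The widest gap was in Gsdme, a pore-forming gasdermin, where probe set 1421534_at differed by 2.95 ± 0.31 (adjusted p = 0.000572) and 1417903_at by -0.82 ± 0.20 (adjusted p = 0.0172). The first was read at 5.23 and 4.97 in the control and 7.74 and 8.35 in the cohort, and the other at 5.83 and 5.42 against 4.89 and 4.72. In Dmd, the dystrophin gene with several promoters, 1430320_at differed by 1.20 ± 0.21 and 1443315_at by -0.73 ± 0.16. In Rabgap1l, a GTPase-activating protein, 1453365_at differed by 1.80 ± 0.41 and 1421488_at by -0.98 ± 0.23. The gene values used above come from the probe set with the highest mean and do not show such splits. Where these probe sets lie on their transcripts was not examined.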

How the data were processed

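The authors deposited intensity values, on a linear scale, for 45101 probe sets on 10 arrays, and RMA is named for the arrays described here per the submitters' processing notes, with no version or joint normalization given. Values were floored at 1, which moved 0 of them, put on the log2 scale and quantile normalized over the 10 arrays. The fixed design assumed log2 values, and the deposited intensity proved linear. Gene names came from the platform annotation: 34945 had 1 gene, 932 several and 9211 were not listed. Control probe sets (64) were left out, and the probe set with the highest mean stood for each of 18193 genes, 9010 of which had more than 1. By gene ID 34741 probe sets were found in RefSeq, which changed 0 symbols.

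The main fit used limma 3.58.1 in R 4.3.3 (lmFit and eBayes) on all 10 arrays in 5 groups, with 5 residual degrees of freedom, two-sided, and Benjamini-Hochberg adjustment over all genes at 0.05. The script was checked on simulated data. Array number limits the precision, and the median standard error was 0.16. Named genes were the 20 largest rises and 20 largest falls with arrays apart, the same among genes with both groups at or above the median of all genes, up to 4 called members of each list, the fibroblast markers, the 4 factors, the 6 largest rises and falls against 2 divisions, and the 8 genes with the widest split between probe sets. Genes outside this rule were named as further members of a list, after their values were seen. The members and lists were chosen with earlier results of these data known.

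The labels number the replicates in every group. How far arrays with one number lay from the mean of their group was correlated between groups. The r ran from 0.477 to 0.872 over 10 pairs of groups (0.486 for this cohort with the control). A shared culture is not stated. The main fit used the group alone, so its standard errors and adjusted p-values leave such pairing out. Only the replicate block, run as an alternative, took the numbers as pairs. The other alternatives were the deposited scale, median centring, only the 4 arrays, floors of 16 and 64, a filter on dim genes, other rules for probe sets, an intensity trend and leaving out each array.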

Additional observations from a re-analysis of the deposited data

How the results depend on the processing

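The 5020 calls against the control and the 2339 of at least 2-fold stayed within 1.5 times of those counts under each alternative apart from these. With each of the 34945 probe sets of 1 gene tested on its own, 8566 probe sets were called and 3930 of them at least 2-fold. Leaving out 1 array gave 2701 to 4025 genes called, with 2701 without cohort replicate 2, and 1640 to 2385 of at least 2-fold. The 1087 calls against 2 divisions became 616 with a floor of 16, 487 with a floor of 64, 6 to 485 without 1 array and 3449 with the replicate block. The cause of these moves was not tested.

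With the replicate block 6869 genes were called against the control, among them all 5020, with 0 of opposite sign. Beside those counts and the list counts given with it in the text (33 of 108 list counts moved by over 1.5 times), and the call on Id1, the block lost 0 calls among the named genes and added 3. Of the 256 called named genes, 66 lost the call without 1 array, 58 of them without cohort replicate 2, 27 with a floor of 16 and 53 with a floor of 64, and 50 of the list counts moved by over 1.5 times without 1 array. Without probe sets that may match several transcripts, 4 of the named genes changed sign: Farsa to -0.25, Rps18 to -0.068, Hnrnpd to -0.20 and Gas2 to 0.031. Over all genes, 4124 were called both there and in the main fit, 1 of them with the opposite sign. No detection calls were given, so how far dim genes lie above background is unknown.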
